A study of Mus musculus with 217 samples.

Results

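The 32 genes described here mark cells of the oligodendrocyte lineage, and all 32 were found among the 54532 genes of the count tables. They were chosen by name as known genes of the lineage, with earlier results of these data known. Of them, 11 form a group named compact myelin and adhesion, which also holds genes of neither kind, such as *Cnp* and *Ermn*. A further 4 encode enzymes that make or supply myelin lipids, 4 encode gap junction and nodal proteins, and 5 are other genes of mature oligodendrocytes. Together these 24 are called the mature genes below. The other members are 4 lineage transcription factors, 2 genes of precursor cells and 2 genes of newly formed oligodendrocytes.

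RNA was sequenced from striatum and cerebral cortex of mice on the C57BL/6 background, 217 libraries from 110 mice. LacQ140 mice carry 1 huntingtin allele with an expanded repeat (m*Htt*), written Hdh(LacO-140Q/+):beta-actin-LacIR tg, in which *LacO* operator sites let a Lac repressor lower the expression of the allele in part, not fully. WT mice were Hdh(LacO-+/+):beta-actin-LacIR tg, so that every group, controls included, carried the repressor transgene, which the ubiquitous beta-actin promoter drives. The inducer IPTG relieves the repression. LacQ140 and WT + IPTG mice received IPTG from embryonic day 5 until they were killed at 6 or 12 months. LacQ140_A and WT mice never received it, so that in LacQ140_A the m*Htt* allele was partly repressed throughout. LacQ140_2M mice were taken off IPTG at 2 months and LacQ140_8M mice, studied at 12 months alone, at 8 months. Each of the 22 groups of tissue, age and arm held 9 or 10 libraries, with females and males in near equal number.

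Oligodendrocytes wrap axons in myelin, a stack of lipid-rich membrane held together by a small set of abundant proteins, and they also feed the axons they wrap. They arise through life from precursor cells that carry the receptor PDGFRA and the proteoglycan NG2, under transcription factors such as OLIG2, SOX10 and MYRF. A newly formed oligodendrocyte passes through a short stage, marked by genes such as *Enpp6* and *Bcas1*, before it makes the full set of myelin proteins. White matter bundles run through the striatum, and much of the cortex is poorer in myelin.

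Values are CPM, counts scaled to the size of each library with TMM factors, and differences are log2 fold changes ± SE from edgeR's quasi-likelihood test. A gene was called higher or lower when its Benjamini-Hochberg adjusted p over all genes tested fell below 0.05 and it differed at least 1.2-fold, up or down. Library totals ran from 33292014 to 68038785 counts. All 32 members had counts in every tissue and age and passed the minimum of 1 count. The ages were kept in separate tables and carry separate batch labels, so that age and batch cannot be told apart, and the ages are set side by side with no test between them. *Htt* itself, whose 2 alleles the counts do not separate, was lower in LacQ140_A than in WT in each tissue and age, by -0.40 and -0.52 in striatum and -0.60 and -0.72 in cortex at 6 and 12 months (log2 fold changes, adjusted p from 6.53e-08 to 0.00408). *Htt* was also lower in LacQ140 than in WT + IPTG, both on IPTG, by -0.40 in the 12-month striatum (adjusted p = 9.03e-06) and -0.36 in the 6-month cortex (adjusted p = 0.00428), and stood at -0.12 and -0.14 in the other two tables (adjusted p = 0.283 and 0.786). The direct differences of LacQ140_A from LacQ140 were -0.21 and -0.25 in striatum and -0.20 and -0.49 in cortex, and none was called (adjusted p from 0.049 to 0.42). LacQ140_2M differed from LacQ140 by -0.15 to -0.43 and LacQ140_8M by -0.0012 in striatum and -0.41 in cortex, none of them called. The lowering of the mutant allele itself cannot be read from these counts. Markers of choroid plexus, pituitary or neurons of the neighbouring region stood over 5 times above their table's median sum in 10 libraries of the 6-month striatum, 7 of the 12-month striatum, 7 of the 6-month cortex and 19 of the 12-month cortex. Results that change without these libraries are given with and without them. Cortex at 12 months also stood apart in another respect. The slope of log2 CPM on log2 transcript length, fitted in each library over expressed genes, had group medians from -0.30 to -0.21 there and from 0.05 to 0.18 in the 3 other tables.

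In WT mice *Mobp* and *Mbp* were the most abundant members in every table. Levels between genes are compared per kilobase of the median annotated transcript. *Mobp*, a basic protein of the dense line of myelin, reached a mean of 4709.6 CPM per kb in the 6-month striatum and 2348 in the 6-month cortex. *Mbp*, the basic protein that compacts the membrane stack, followed with 3535 and 1958 CPM per kb. *Plekhb1* and the raft proteolipid gene *Mal* came next in every table, with 413 and 391.1 CPM per kb in the 6-month striatum. The annotated transcripts of *Mobp* are short, with a median of 498 bases, so its place at the head of the list is uncertain. At the other end stood *Cspg4*, which encodes the NG2 proteoglycan, at 1.94 and 2.05 CPM per kb, and *Carns1*, carnosine synthase, at 5.12 and 1.98.

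Striatum held more of nearly every member than cortex. At 6 months, 28 of 32 members were higher and 1 was lower in WT striatum (29.4% of all genes tested were called, 14.5% as higher and 14.9% as lower, and 50.9% of genes with a mean of at least 1 CPM), with a median log2 difference of 0.96 against 0.02 over genes with a mean of at least 1 CPM. *Mog*, a surface glycoprotein of the outermost myelin lamella, lay at 112, 156 and 194 CPM (lowest, median and highest) in striatum and at 63.6, 73.2 and 85.6 CPM in cortex, a difference of 1.14 ± 0.07 (adjusted p = 9.32e-29). The tissues did not overlap. The largest differences were those of *Hapln2*, a link protein of the node of Ranvier, at 1.68 ± 0.15, of *Gjb1*, the gap junction protein connexin 32, at 1.46 ± 0.11, and of *Mag*, an adhesion protein of the inner lamella, at 1.46 ± 0.07. The precursor genes were the ones with negative differences. *Pdgfra*, the receptor for the mitogen of precursors, was the member that was lower in striatum, at 47.6, 56.2 and 67.7 CPM against 52.8, 74.8 and 97.0 CPM in cortex, a difference of -0.36 ± 0.08 (adjusted p = 7.22e-05). For *Cspg4* the difference was -0.08 ± 0.09 (adjusted p = 0.58), and *Olig2* and *Enpp2* were also not called. With the mouse as a block the counts were again 28 and 1.

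At 12 months the tissue difference looked otherwise. There 25 members were higher and 4 lower in WT striatum (46.7% of all genes were called, 22.9% as higher and 23.7% as lower, and 83.4% of genes with a mean of at least 1 CPM). *Opalin*, *Aspa*, *Ppp1r14a* and *Plekhb1* were the lower ones, at -0.67, -0.62, -0.91 and -0.38. *Pdgfra* was higher in striatum by 1.91 ± 0.13, *Cspg4* by 2.48 ± 0.14, *Sox10* by 2.68 ± 0.16 and *Myrf* by 3.06 ± 0.13. Cortical *Pdgfra* lay at 8.79, 12.1 and 25.7 CPM in these 12-month mice and at 52.8, 74.8 and 97.0 CPM in the 6-month mice. When each library's length slope entered the fit, 23 members were higher and 0 lower at 12 months, but 9 of the 25 were then no longer called and 7 others were. With the term 8568 of all 37363 genes tested were called in either direction, against 17440 without it. *Opalin* then stood at 1.31, *Aspa* at 1.44, *Ppp1r14a* at 1.70 and *Plekhb1* at 0.67, all called, while *Pdgfra* stood at -0.18 (adjusted p = 0.653), *Enpp2* at -0.35 against 0.48 before and *Sirt2* at -0.19 against 0.89. The 6 other calls lost were *Nfasc* (0.19 against 2.43), *Olig1* (0.0069 against 1.55), *Mbp* (0.20 against 0.56, adjusted p = 0.701), *Bcas1*, *Gal3st1* and *Ugt8a*. *Hapln2*, *Mal* and *Mobp* were called with the term alone, at 2.04, 1.18 and 1.035. *Cspg4* stood at 1.60, *Myrf* at 1.30 and *Sox10* at 0.86. The directions of 7 called members between the tissues at 12 months thus depended on that term, and the length slope differed between the tissues.

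**Figure D1:**
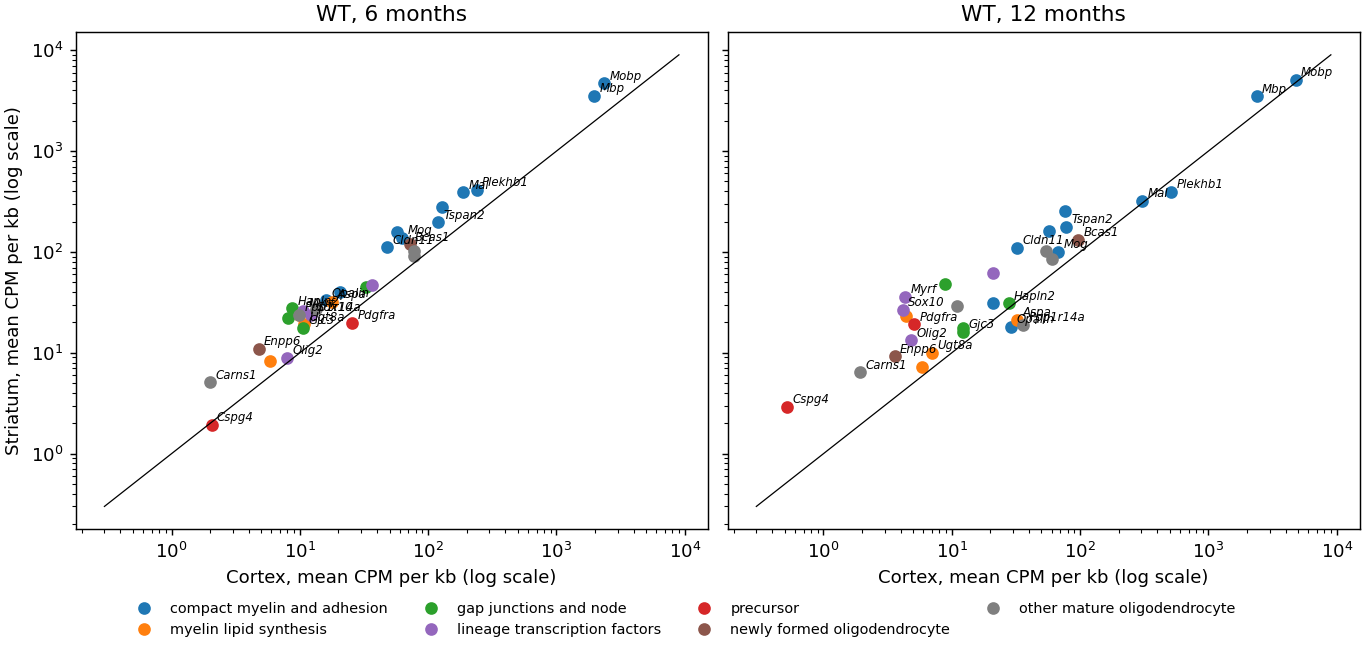
Mean level of each member in WT striatum (vertical axis) against WT cortex (horizontal axis), in CPM per kb of transcript on log scales, 6 months on the left and 12 months on the right. Each point is 1 gene, coloured by its role, and the line marks equal levels. At 6 months nearly all points lie above the line, with Pdgfra and Cspg4 below it, and at 12 months Opalin, Aspa, Ppp1r14a and Plekhb1 lie below it.

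Many myelin genes were lower in the striatum of LacQ140 mice than in WT + IPTG mice at 6 months, the comparison that asks what the expressed mutant allele does when both groups receive the inducer. Of 32 members, 13 fell and 0 rose (3.96% of all genes tested were called lower and 3.97% higher, and 7.99% were called lower among genes with a mean of at least 1 CPM). The median log2 fold change of the members was -0.15, against -0.01 over genes with a mean of at least 1 CPM, and 25 of 32 were negative. Among the mature genes 12 of 24 fell, with a median of -0.25. In bulk tissue, fewer cells of a type and less RNA per cell cannot be told apart.

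Genes of the group named compact myelin and adhesion made up 6 of the 13 that fell. *Mobp* (ENSMUSG00000032517, chr9:120149707-120181484, plus strand, GRCm38) lay at 2351, 2831 and 3759.5 CPM (lowest, median and highest) in WT + IPTG and at 1600.4, 1890.1 and 2031 CPM in LacQ140. No LacQ140 library reached the lowest WT + IPTG library, and the log2 fold change was -0.64 ± 0.06 (adjusted p = 9.03e-12). *Mobp* was also called higher in WT + IPTG than in WT, by 0.30 ± 0.06 (edgeR adjusted p = 0.00637), and the range of WT mice without IPTG overlapped that of LacQ140. *Mal* (ENSMUSG00000027375, chr2:127633226-127656695, minus strand) lay at 615, 735 and 850.2 CPM in WT + IPTG and at 412, 487 and 534 CPM in LacQ140, a change of -0.58 ± 0.06 (adjusted p = 6.51e-11). Again the groups did not overlap. *Tspan2* (ENSMUSG00000027858, chr3:102734529-102801513, plus strand), a tetraspanin of the oligodendrocyte membrane, lay at 164, 184 and 221.2 CPM in WT + IPTG and at 107, 124 and 155 CPM in LacQ140, a change of -0.54 ± 0.06 (adjusted p = 2.87e-10). *Cldn11* (ENSMUSG00000037625, chr3:31149920-31164324, plus strand), the claudin of myelin tight junctions, lay at 201, 215 and 250.5 CPM and 143, 170.4 and 194 CPM, a change of -0.36 ± 0.07 (adjusted p = 7.56e-05). For *Tspan2* and *Cldn11*, too, every LacQ140 library lay under every control library. *Ermn*, a cytoskeletal protein of late oligodendrocytes, changed by -0.44 ± 0.08.

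*Mbp*, at 6172, 7409 and 7841 CPM in WT + IPTG and 5216, 6155 and 6565 CPM in LacQ140, fell by the least of the 13, with -0.27 ± 0.05 (adjusted p = 0.000139) and overlapping groups. Its fold change lay just past the bound, and leaving out 1 library at a time put it under the bound in 6 of 20 fits. Not all major myelin proteins passed the test. *Mog* (ENSMUSG00000076439, chr17:37010743-37023398, minus strand) lay at 136, 159 and 179 CPM and 124, 148 and 179 CPM, a difference of -0.09 ± 0.07 with a 95% interval from -0.23 to 0.04. *Mag* stood at -0.14 ± 0.07 and *Cnp*, the phosphodiesterase of non-compact myelin, at -0.07 ± 0.06. *Opalin* (ENSMUSG00000050121, chr19:41061710-41077113, minus strand), a sialylated membrane protein, stood at 0.06 ± 0.10 with overlapping groups. *Plekhb1* had an adjusted p of 0.00261, but its fold change of -0.23 ± 0.05 was under the bound.

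Genes of myelin lipids fell as well, 3 of 4 of them. *Ugt8a* (ENSMUSG00000032854, chr3:125865271-125938619, minus strand), the enzyme that makes galactosylceramide, lay at 53.6, 61.5 and 74.4 CPM in WT + IPTG and at 21.7, 40.01 and 49.5 CPM in LacQ140, a change of -0.72 ± 0.13 (adjusted p = 2.44e-05). That was the largest change of any member in this comparison, and the groups did not overlap. WT mice without IPTG had the widest range of *Ugt8a*, from 36.96 to 99.05 CPM. *Fa2h*, which hydroxylates the fatty acids of these lipids, changed by -0.43 ± 0.09, and *Aspa*, which frees acetate from N-acetylaspartate, by -0.45 ± 0.11. *Gal3st1*, the sulphatide sulphotransferase, stood at -0.13 ± 0.09 and did not pass. In the group of gap junction and nodal genes, *Gjc3* (ENSMUSG00000056966, chr5:137953461-137963098, minus strand), connexin 29, lay at 70.4, 79.2 and 107 CPM and 51, 56.5 and 67.5 CPM, a change of -0.50 ± 0.07 (adjusted p = 6.34e-07) with no overlap. *Hapln2* (ENSMUSG00000004894, chr3:88021750-88027583, minus strand) lay at 46.2, 57.9 and 74.1 CPM and 37.3, 42.3 and 54.4 CPM, a change of -0.41 ± 0.11 (adjusted p = 0.00631) with overlapping groups. The values of *Gjb1* and *Nfasc*, the paranodal and nodal adhesion gene neurofascin, were -0.06 ± 0.09 and -0.05 ± 0.07, neither called.

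The last 2 of the 13 were *Bcas1* and *Enpp2*. *Bcas1* (ENSMUSG00000013523, chr2:170346991-170427845, minus strand), a gene of oligodendrocytes that are starting to myelinate, lay at 321, 420.0 and 540.3 CPM and 253.2, 311.5 and 336 CPM, a change of -0.47 ± 0.07 (adjusted p = 1.29e-06). In this tissue and age *Bcas1* was also called higher in WT + IPTG than in WT mice, by 0.31 ± 0.07 (edgeR adjusted p = 0.0157). Its fall is thus measured against a control that was itself higher with IPTG. *Enpp2*, autotaxin, is also a gene of choroid plexus, and it changed by -0.35 ± 0.07. Its value stands beside a summed level of 5 choroid plexus markers of 23.7 to 721 CPM in WT + IPTG and 28.5 to 87.6 CPM in LacQ140. Without the 10 libraries with high markers of other tissues, 11 members fell and 0 rose, and *Hapln2* (adjusted p = 0.0919) and *Enpp2* were the ones no longer called. In that smaller set 4.16% of all genes were called. The 4 other mature genes without a call were *Tmem88b* at -0.04 ± 0.08, *Ppp1r14a* at 0.07 ± 0.13, *Carns1* at -0.15 ± 0.08 and *Sirt2* at 0.09 ± 0.05, and *Enpp6*, with a median of 15.7 CPM in WT + IPTG and 18.3 CPM in LacQ140, stood at 0.18 ± 0.08 (adjusted p = 0.153).

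**Figure D2:**
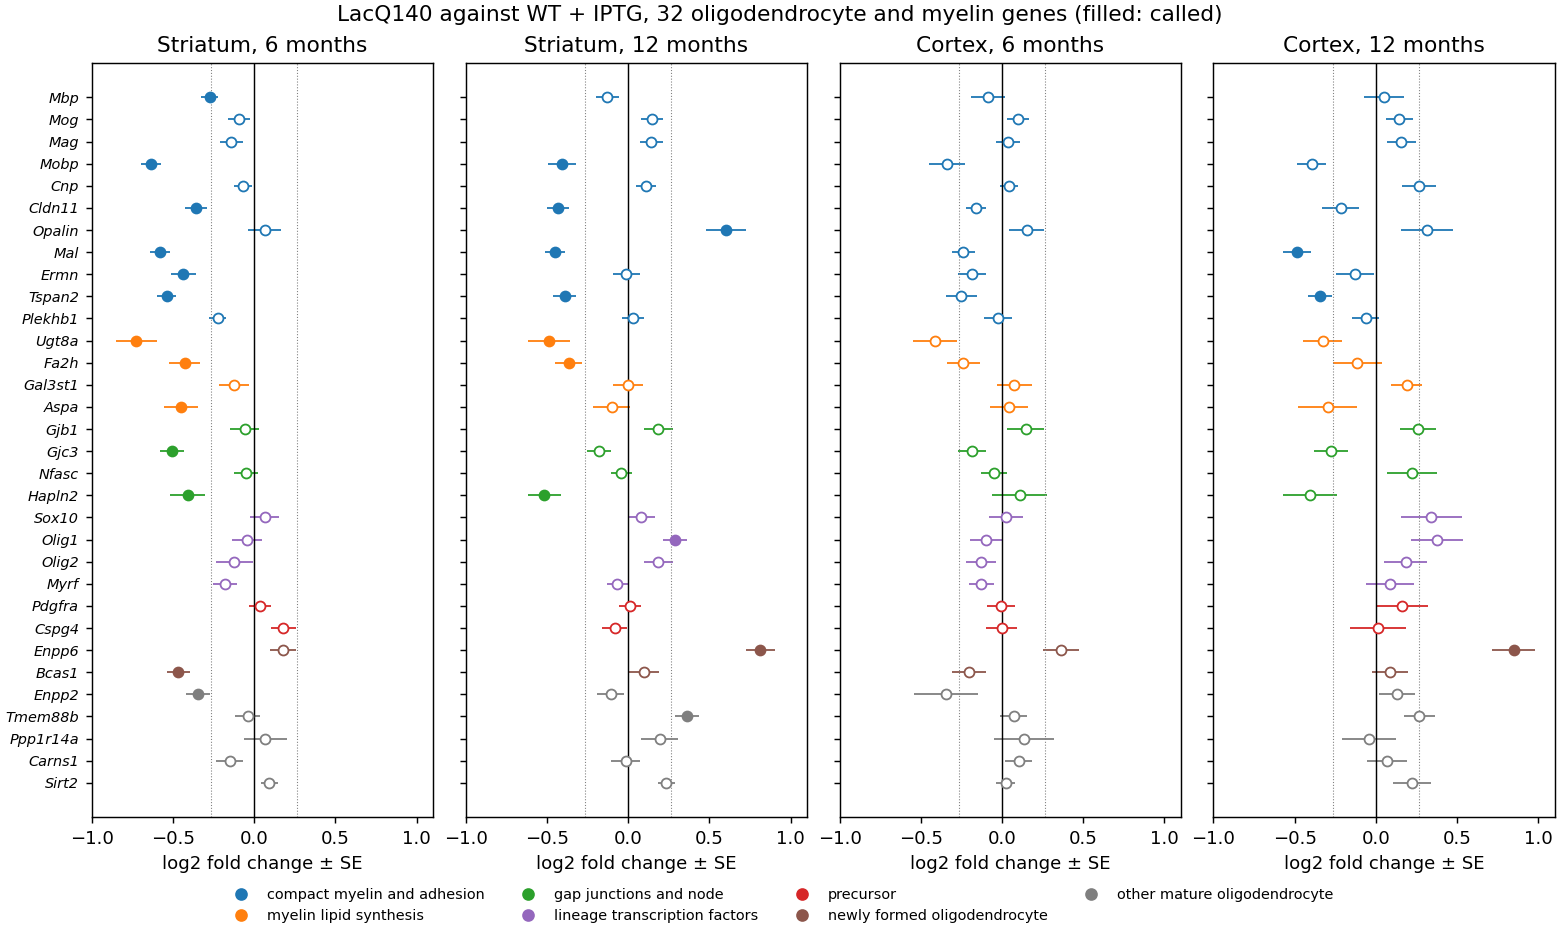
Log2 fold change, LacQ140 against WT + IPTG, of each of the 32 members (rows, grouped by role) in each tissue and age. Bars are ± 1 SE, filled points passed the test, and dotted lines mark a 1.2-fold change either way. Filled points on the left side, lower in LacQ140, number 13 in the 6-month striatum, and filled points on the right, higher in LacQ140, number 4 in the 12-month striatum.

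Neither precursor gene was called in the 6-month striatum. *Pdgfra* (ENSMUSG00000029231, chr5:75152292-75198215, plus strand) lay at 51.4, 62.7 and 71.2 CPM in WT + IPTG and at 55.1, 61.8 and 76.0 CPM in LacQ140, a difference of 0.04 ± 0.07 with a 95% interval from -0.10 to 0.17. *Cspg4* (ENSMUSG00000032911, chr9:56865033-56899870, plus strand) lay at 13.5, 15.5 and 17.6 CPM and 14.5, 17.3 and 23.7 CPM, a difference of 0.18 ± 0.07 (adjusted p = 0.116). Both ranges overlapped between the groups. *Cspg4* is also a gene of pericytes and *Pdgfra* one of fibroblasts. Summed markers of mural cells ran from 197 to 246.8 CPM in WT + IPTG and from 169 to 216 CPM in LacQ140, and those of fibroblasts from 52.3 to 64.05 CPM and from 37.96 to 56.5 CPM. None of the 4 lineage factors was called, and *Olig1* stood at -0.04 ± 0.09. *Sox10* (ENSMUSG00000033006, chr15:79154908-79165240, minus strand) lay at 38.4, 52.6 and 68.3 CPM and 47.8, 56.9 and 64.8 CPM, with a difference of 0.06 ± 0.09. *Olig2* (ENSMUSG00000039830, chr16:91225457-91228677, plus strand) lay at 21.4, 27.6 and 32.4 CPM and 17.6, 24.2 and 42.3 CPM, with a difference of -0.12 ± 0.12. *Myrf* (ENSMUSG00000036098, chr19:10208272-10240748, minus strand), which drives myelin gene transcription, lay at 87.5, 104 and 109.6 CPM and 71.6, 93.2 and 107.8 CPM, with a difference of -0.18 ± 0.08 (adjusted p = 0.128).

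The distance between mature and precursor genes can be read in each library as the mean log2 CPM of the 24 mature genes minus that of the 2 precursor genes. In the 6-month striatum it was 2.00, 2.23 and 2.51 (lowest, median and highest) in WT + IPTG and 1.47, 1.83 and 2.12 in LacQ140. WT mice spanned 1.67 to 2.64 with a median of 2.22, LacQ140_A mice had a median of 1.94 and LacQ140_2M mice one of 1.99. The LacQ140 group thus lay lowest, with ranges that overlapped. At 12 months the striatal medians were 1.84 in WT + IPTG, 1.83 in LacQ140, 1.78 in WT, 1.77 in LacQ140_A, 1.53 in LacQ140_2M and 1.61 in LacQ140_8M. No test was run on this measure, since its genes were chosen as a list.

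At 12 months the striatum of LacQ140 mice showed members that moved in both directions, 7 lower and 4 higher than in WT + IPTG mice (4.86% of all genes tested were called lower and 4.58% higher, and 17.8% of genes with a mean of at least 1 CPM in either direction). The members' median was -0.01 and that of genes with a mean of at least 1 CPM was 0.01. All 7 that fell are mature genes, and each of them was also among the genes that fell in the 6-month mice. *Mal* lay at 465.8, 528 and 631 CPM in WT + IPTG and at 295.5, 403 and 485 CPM in LacQ140, a change of -0.45 ± 0.06 (adjusted p = 2.72e-08). *Cldn11* lay at 193, 214 and 235.7 CPM and 126, 164 and 176 CPM, a change of -0.43 ± 0.07 (adjusted p = 6.05e-07). The groups overlapped slightly for *Mal* and not at all for *Cldn11*. *Hapln2* lay at 38.98, 51.8 and 73.4 CPM and 22.6, 36.7 and 46.7 CPM, a change of -0.51 ± 0.10. *Mobp* lay at 2028, 2489 and 3136 CPM and 1352, 1994 and 2494 CPM, a change of -0.41 ± 0.08. *Tspan2* lay at 129, 137 and 164 CPM and 83.7, 114.7 and 133 CPM, a change of -0.39 ± 0.07. These 3 genes passed the test with ranges that overlapped. *Ugt8a* changed by -0.49 ± 0.13 and *Fa2h* by -0.37 ± 0.08. Without the 7 libraries with high markers of other tissues *Ugt8a* stood at -0.35 (adjusted p = 0.0588) and was the only member no longer called.

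The 4 members that rose came from 4 roles. *Enpp6* (ENSMUSG00000038173, chr8:46986887-47096762, plus strand), a choline phosphodiesterase and a gene of newly formed oligodendrocytes, lay at 10.2, 12.1 and 16.4 CPM in WT + IPTG and at 19.4, 21.4 and 27.0 CPM in LacQ140, a change of 0.81 ± 0.09 (adjusted p = 6.71e-11). No LacQ140 library was as low as the highest control. *Opalin* lay at 26.4, 31.7 and 41.3 CPM and 34.1, 48.3 and 67.7 CPM, a change of 0.60 ± 0.12 (adjusted p = 0.000127) with some overlap. *Tmem88b*, a membrane protein gene of oligodendrocytes, changed by 0.36 ± 0.07 and the lineage factor *Olig1* by 0.29 ± 0.07. *Olig1* was called in 15 of 19 fits with 1 library left out. *Bcas1*, the other gene of newly formed cells, lay at 304.3, 413 and 471 CPM and 305, 420.1 and 615 CPM, with a difference of 0.10 ± 0.09 that did not pass. *Sirt2*, a deacetylase of the myelin sheath, had an adjusted p of 0.00035 with a change of 0.24 ± 0.05, under the bound.

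*Mbp*, *Mog*, *Gjc3* and the remaining lineage and precursor genes were not called in the 12-month striatum. *Mbp* lay at 5995, 6782 and 8153 CPM and 4755, 6170.0 and 7957 CPM, with a difference of -0.13 ± 0.07. *Mog* lay at 105, 118 and 134 CPM and 103, 135 and 159 CPM, with a difference of 0.15 ± 0.07 (adjusted p = 0.164). *Gjc3* lay at 54.2, 64.6 and 76.9 CPM and 40.1, 57.7 and 69.3 CPM, with a difference of -0.18 ± 0.07 (adjusted p = 0.0929). The groups overlapped for all 3 genes. *Pdgfra* lay at 48.7, 56.01 and 66.9 CPM and 45.02, 59.1 and 68.2 CPM, and its difference of 0.01 ± 0.07 had a 95% interval from -0.12 to 0.14. *Cspg4* lay at 21.3, 25.2 and 33.3 CPM and 20.3, 23.6 and 28.2 CPM, and its difference was -0.08 ± 0.08. Among the factors, *Sox10* ranged from 62.4 to 113 CPM in WT + IPTG and from 73.4 to 120.8 CPM in LacQ140 and stood at 0.08 ± 0.08. *Olig2* stood at 0.18 ± 0.09 and *Myrf* at -0.07 ± 0.07, with medians of 30.4 and 33.4 CPM for *Olig2* and of 143 and 137 CPM for *Myrf* in WT + IPTG and LacQ140.

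**Figure D3:**
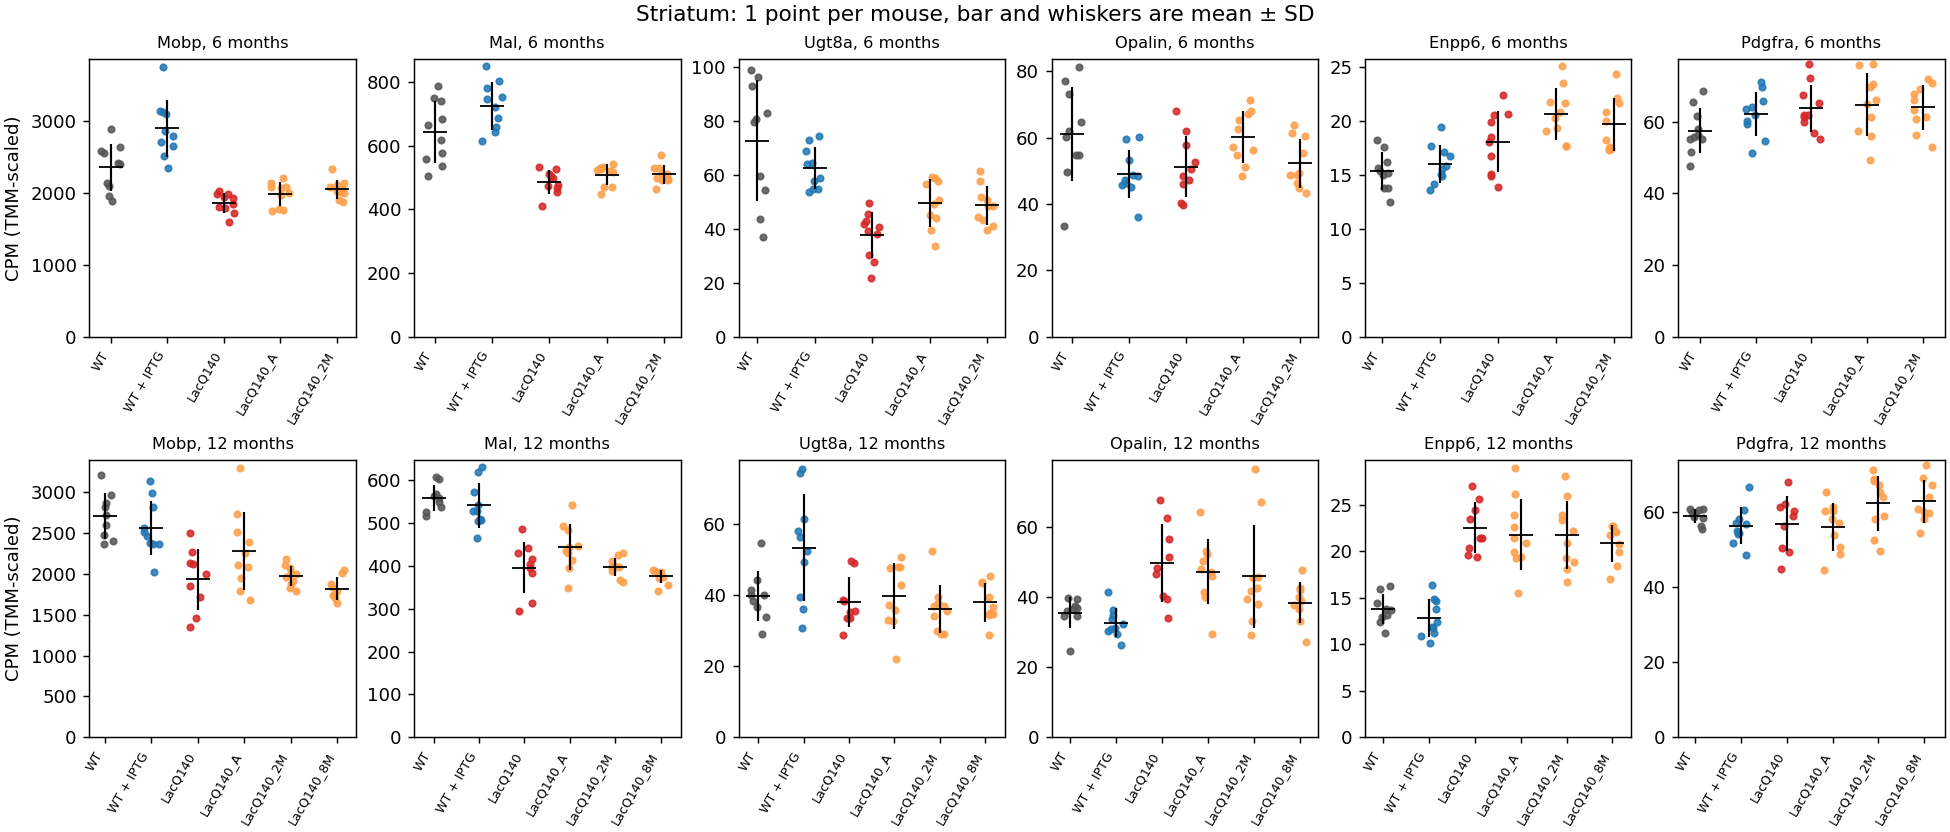
Levels of Mobp, Mal, Ugt8a, Opalin, Enpp6 and Pdgfra in striatum, in CPM, with 1 point for each mouse and the mean ± SD of each group, at 6 and 12 months. Mobp and Mal lie lower in LacQ140 than in WT + IPTG at both ages, Enpp6 lies higher in LacQ140 at 12 months with 19.4 to 27.0 CPM against 10.2 to 16.4 CPM, and Pdgfra ranges overlap at both ages.

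Promoter sequences are shown for 3 of the 7 genes that fell in the striatum at both ages, *Mobp*, *Mal* and *Hapln2*, and for *Opalin* and *Enpp6*, 2 of the 4 that rose at 12 months, so that members that moved together can be read side by side. They were chosen as examples with their values known. Each run is 300 bases of GRCm38.p6 from RefSeq, 250 before to 50 after the annotated start, written 5′ to 3′ on the strand of the gene. Capitals mark every match to a SOX10-type motif (ACAAAG or CTTTGT), an E-box of the type OLIG factors bind (CAGCTG) or a MYRF-type motif (CTGGCAC or GTGCCAG), searched on both strands.

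*Mobp* promoter, chr9:120149492-120149791, plus strand: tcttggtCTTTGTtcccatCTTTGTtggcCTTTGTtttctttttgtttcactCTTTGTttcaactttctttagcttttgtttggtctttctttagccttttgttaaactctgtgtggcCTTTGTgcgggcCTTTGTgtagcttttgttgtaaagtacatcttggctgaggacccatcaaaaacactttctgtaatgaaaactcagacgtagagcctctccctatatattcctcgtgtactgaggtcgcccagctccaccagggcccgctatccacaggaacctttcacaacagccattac
*Mal* promoter, chr2:127656646-127656945, minus strand: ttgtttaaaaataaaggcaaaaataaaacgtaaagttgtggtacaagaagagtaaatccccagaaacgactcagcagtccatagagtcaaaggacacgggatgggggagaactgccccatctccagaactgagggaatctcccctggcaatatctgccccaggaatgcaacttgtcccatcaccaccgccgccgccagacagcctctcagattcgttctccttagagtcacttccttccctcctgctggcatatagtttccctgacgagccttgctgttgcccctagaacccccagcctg
*Hapln2* promoter, chr3:88027462-88027761, minus strand: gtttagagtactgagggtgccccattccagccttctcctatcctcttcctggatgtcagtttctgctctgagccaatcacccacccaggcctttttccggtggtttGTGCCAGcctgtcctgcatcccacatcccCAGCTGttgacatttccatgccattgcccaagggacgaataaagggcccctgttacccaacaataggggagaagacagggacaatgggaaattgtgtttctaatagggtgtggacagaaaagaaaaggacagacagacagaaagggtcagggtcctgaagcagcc
*Opalin* promoter, chr19:41077064-41077363, minus strand: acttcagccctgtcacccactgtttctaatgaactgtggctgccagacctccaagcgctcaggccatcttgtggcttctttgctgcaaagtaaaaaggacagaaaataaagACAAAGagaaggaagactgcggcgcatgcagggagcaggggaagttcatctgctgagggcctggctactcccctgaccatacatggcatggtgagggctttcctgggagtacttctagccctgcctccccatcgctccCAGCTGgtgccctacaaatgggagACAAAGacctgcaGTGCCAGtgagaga
*Enpp6* promoter, chr8:46986637-46986936, plus strand: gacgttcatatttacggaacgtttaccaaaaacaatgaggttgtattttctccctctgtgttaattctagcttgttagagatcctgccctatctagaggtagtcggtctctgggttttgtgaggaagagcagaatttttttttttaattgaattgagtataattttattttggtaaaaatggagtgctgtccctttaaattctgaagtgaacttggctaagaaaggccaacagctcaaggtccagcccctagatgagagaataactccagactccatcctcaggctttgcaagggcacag

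The *Mobp* window held 6 SOX10-type matches, all in the orientation CTTTGT, and that of *Opalin* held 2, with 1 E-box and 1 MYRF-type match. The *Hapln2* window held 1 E-box and 1 MYRF-type match. Neither *Mal*, which fell, nor *Enpp6*, which rose, had a match to these letters in this window. Of the genes not shown, *Cldn11* and *Ugt8a*, which fell at both ages, and *Tmem88b*, which rose, had no match either, and *Tspan2*, which fell, had 1 SOX10-type match in 1 of its 2 windows. The windows shown thus hold more matches than those left out. RefSeq windows were found for 24 of the 32 members, 34 windows in all. The members without a window here were *Bcas1*, *Carns1*, *Enpp2*, *Fa2h*, *Mbp*, *Myrf*, *Olig1* and *Sox10*. A SOX10-type match was present in 26.5% of the members' windows and in 18.7% of all 32851 promoter windows of the same length, a MYRF-type match in 14.7% and 5.01%, and an E-box in 11.8% and 16.3%. These are letter matches and are given as a description, and some genes have more than 1 window.

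Further genes of the lineage, from 2 lists that share no gene with the members, moved in both directions. Of 25 other genes of mature oligodendrocytes, 8 fell and 2 rose in the 6-month striatum of LacQ140 mice (7.93% of all genes were called in either direction). Carbonic anhydrase *Car2* changed by -0.59 ± 0.07 and *Ndrg1* by -0.39 ± 0.05. At 12 months 5 of the 25 fell and 2 rose (9.44% of all genes). *Car2* then changed by -0.50 ± 0.08 and *Zfp488*, a zinc finger factor of the lineage, by 0.77 ± 0.08. Of 15 other genes of precursors, 2 rose and 2 fell at 6 months. *Nkx2-2*, a homeodomain factor of the lineage, changed by 0.56 ± 0.14. *Gpr17*, a receptor of committed precursors, changed by -0.32 ± 0.07 and *Lims2* by -0.34 ± 0.08. At 12 months 3 rose and 1 fell, among them *Nkx2-2* at 0.68 ± 0.13, *Pcdh15* at 0.56 ± 0.11 and *Cacng4* at -0.50 ± 0.05.

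Markers of other cells moved in the same comparison. In the 6-month striatum 2 of 7 astrocyte markers fell (median -0.24), with 3 of 6 microglial (-0.22), 1 of 5 endothelial (-0.23), 2 of 4 mural (-0.26), 2 of 6 fibroblast (-0.29) and 2 of 5 choroid plexus markers (-0.72), and none of these lists had a member that rose. All 5 markers of striatal projection neurons fell (-0.39), and 0 of 5 general neuronal markers were called (0.13). Summed astrocyte markers ranged over 4332 to 5619 CPM in WT + IPTG and over 3662 to 4433 CPM in LacQ140, and summed microglial markers over 508 to 601 CPM and 434 to 509 CPM. At 12 months 2 of 7 astrocyte (-0.19), 1 of 6 microglial (-0.08), 2 of 5 endothelial (-0.26), 1 of 4 mural (-0.18), 1 of 6 fibroblast (-0.22) and 2 of 5 choroid plexus markers (-0.98) fell, with all 5 striatal neuron markers (-0.82). Schwann cell markers gave 1 of 4 lower at 6 months (*Pmp2*) and 0 of 4 at 12 months. No marker of any list was at 0 in every library. The part of other cell types in the values of the members was not tested.

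In cortex few members passed the test. At 6 months edgeR called 0 of 32 members in LacQ140 against WT + IPTG (0.881% of all genes were called), DESeq2 also called 0, and 9 members (28.1%) had an unadjusted p under 0.05, against 16.9% of genes with a mean of at least 1 CPM. The members ran from -0.41 to 0.36 with a median of -0.01. *Ugt8a* lay at 22.3, 25.3 and 30.3 CPM in WT + IPTG and at 16.5, 19.1 and 21.7 CPM in LacQ140, a difference of -0.41 ± 0.13 (adjusted p = 0.138). Its groups did not overlap, yet WT mice without IPTG ranged from 22.0 to 67.8 CPM. *Mobp* stood at -0.34 ± 0.11 (adjusted p = 0.129), *Mal* at -0.24 ± 0.07 (adjusted p = 0.0786) and *Enpp6* at 0.36 ± 0.11 (adjusted p = 0.0972). *Pdgfra* differed by -0.01 ± 0.08 with a 95% interval from -0.17 to 0.16. Without 1 control library, WT + IPTG male 4, *Mal* and *Mobp* were called lower. Of the other lineage genes, *Car2*, *Gpr17* and *Lims2* fell, with changes of -0.31 ± 0.07, -0.37 ± 0.08 and -0.35 ± 0.08.

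At 12 months 3 cortical members were called, *Enpp6* higher and *Mal* and *Tspan2* lower (0.0899% of all genes were called, 0.0232% as higher and 0.0667% as lower). *Enpp6* lay at 3.98, 4.67 and 8.05 CPM in WT + IPTG and at 6.44, 9.27 and 12.7 CPM in LacQ140, a change of 0.85 ± 0.13 (adjusted p = 0.00012). *Mal* lay at 389, 474 and 706 CPM and 304.3, 347 and 429 CPM, a change of -0.49 ± 0.09 (adjusted p = 0.00175). *Tspan2* lay at 56.3, 62.7 and 73.2 CPM and 40.01, 49.7 and 58.3 CPM, a change of -0.35 ± 0.07 (adjusted p = 0.0259). The ranges overlapped for all 3 genes. *Mobp*, at -0.40 ± 0.09, had an adjusted p of 0.0509. The members' median was 0.09. *Mbp* stood at 0.05 ± 0.12, *Mog* at 0.14 ± 0.08, *Sox10* at 0.34 ± 0.19, *Olig2* at 0.18 ± 0.13 and *Myrf* at 0.09 ± 0.15, none called. *Pdgfra* lay at 8.24, 13.3 and 21.2 CPM and 12.4, 13.8 and 19.8 CPM, with a 95% interval of its difference from -0.16 to 0.48, and that of *Cspg4* ran from -0.32 to 0.35. *Tspan2* was called in 14 of 20 fits with 1 library left out and *Mobp* in 4. Choroid plexus markers summed to a median of 18.8 CPM in the WT + IPTG cortex and of 569 CPM in the LacQ140 cortex at this age. When the 19 libraries with high markers of other tissues were left out, 6 of them from the LacQ140 group, 0 members and 2 genes in all were called. *Enpp6* then stood at 0.64 (adjusted p = 0.449) and *Mal* at -0.49 (adjusted p = 0.416).

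Whether the disease effect differed between the tissues was tested as an interaction, the log2 fold change in striatum minus that in cortex, called by the adjusted p alone. At 6 months *Mal* was the 1 member that passed (0.663% of all genes), at -0.35 ± 0.09 (adjusted p = 0.0463). In the same test 27 of 32 members were negative, with a median of -0.20 against -0.01 over genes with a mean of at least 1 CPM, and 12 members (37.5%) had an unadjusted p under 0.05, against 13.6% of those genes. *Aspa* stood at -0.50 ± 0.16 (adjusted p = 0.183) and *Gjc3* at -0.33 ± 0.11 (adjusted p = 0.224). With the mouse as a block these genes passed beside *Mal*, 3 members in all. For *Pdgfra* the interaction was 0.03 ± 0.11 and for *Cspg4* 0.17 ± 0.12. At 12 months edgeR and DESeq2 each called 0 members (2.55% of all genes in edgeR), and 0 had an unadjusted p under 0.05, against 24.3% of genes with a mean of at least 1 CPM. *Enpp6*, called in both tissues, had an interaction of -0.05 ± 0.16 and *Mal* one of 0.02 ± 0.11.

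LacQ140_A and WT mice received no IPTG and share no library with the comparison of LacQ140 and WT + IPTG mice, so this pair shows the members where the mutant allele was partly repressed throughout. In the 6-month striatum 2 members rose and 2 fell (0.91% of all genes were called, 0.43% as higher and 0.48% as lower). *Enpp6* lay at 12.5, 15.2 and 18.3 CPM in WT and at 17.6, 20.5 and 25.1 CPM in LacQ140_A, a change of 0.43 ± 0.08 (adjusted p = 0.000907). *Cspg4* lay at 12.7, 15.6 and 18.5 CPM and 14.6, 19.2 and 22.6 CPM, a change of 0.28 ± 0.07 (adjusted p = 0.042). Both ranges overlapped between the groups. *Mal* changed by -0.34 ± 0.06 (adjusted p = 0.000666) and *Ugt8a* by -0.55 ± 0.13 (adjusted p = 0.0126). *Mobp*, at -0.25 ± 0.06, passed the adjusted p and missed the bound. Without the libraries with high markers of other tissues *Mal* and *Enpp6* were called (0.139% of all genes in that smaller set).

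In the 12-month striatum the same pair had 4 members higher and 3 lower (3.15% of all genes, 1.25% as higher and 1.91% as lower). *Enpp6* lay at 11.2, 13.7 and 16.3 CPM in WT and at 15.5, 21.2 and 28.9 CPM in LacQ140_A, a change of 0.66 ± 0.09 (adjusted p = 1.77e-07). *Opalin* changed by 0.41 ± 0.12, *Olig1* by 0.35 ± 0.07 and *Tmem88b* by 0.32 ± 0.07. *Tspan2* changed by -0.42 ± 0.07, *Mal* by -0.33 ± 0.06 and *Hapln2* by -0.33 ± 0.10. All 7 were also called, in the same direction, in LacQ140 against WT + IPTG at 12 months, where they are 7 of 11 called members. At 6 months the genes called in both pairs were *Mal* and *Ugt8a*, 2 of 13 in the LacQ140 pair and 2 of 4 in the LacQ140_A pair. Over all 32 members the sign was shared by 62.5% at 6 months and 78.1% at 12 months in striatum, against 69.4% and 71.4% of genes with a mean of at least 1 CPM. Without the libraries with high markers of other tissues 5 members were called at 12 months, *Enpp6*, *Olig1* and *Tmem88b* higher and *Mal* and *Tspan2* lower (2.62% of all genes were called in that smaller set).

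In cortex the pair had 1 member called at each age. *Ugt8a* changed by -0.58 ± 0.13 (adjusted p = 0.0312) at 6 months, when 0.425% of all genes were called. *Enpp6* changed by 0.67 ± 0.13 (adjusted p = 0.0244) at 12 months, when 0.0174% were called, with values of 3.14, 4.54 and 6.43 CPM in WT and 5.87, 7.22 and 11.6 CPM in LacQ140_A. Neither was called when libraries with high markers of other tissues were left out. Of the other lineage genes, *Zfp488* rose by 0.52 ± 0.07 in the 6-month striatum and by 0.66 ± 0.08 in the 12-month striatum, and *Car2* changed by -0.46 ± 0.07 at 6 months.

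**Figure D4:**
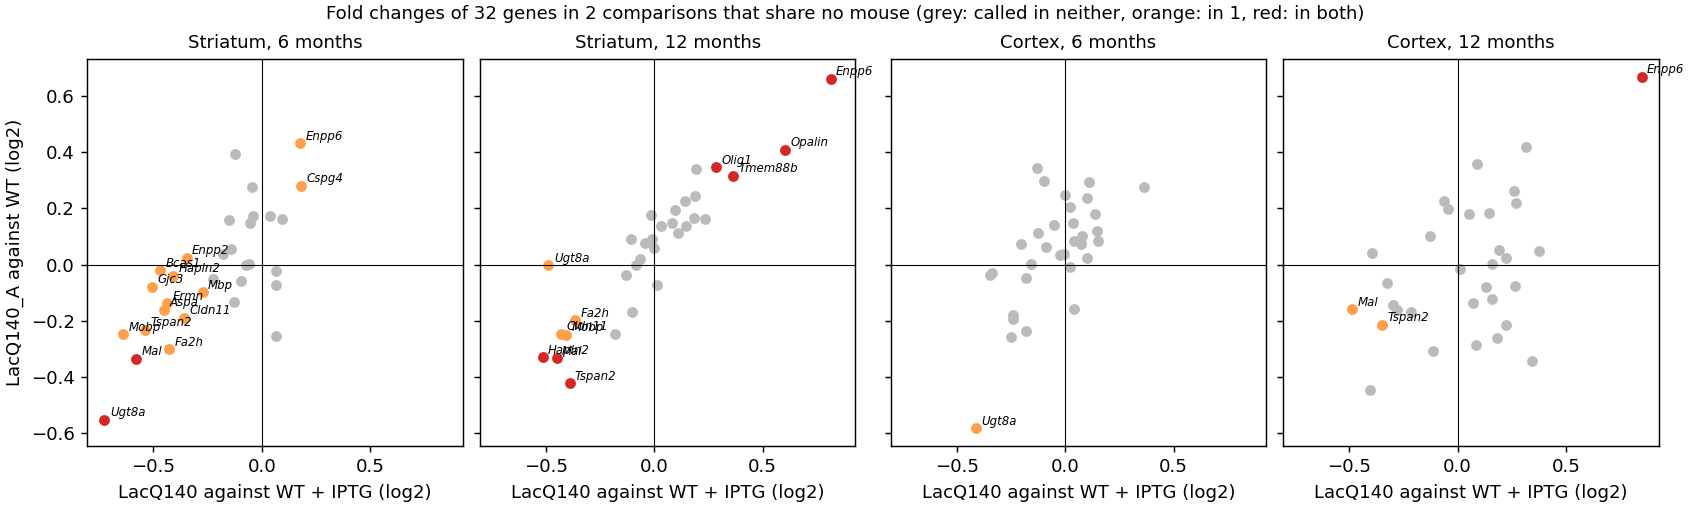
Log2 fold change of each member in LacQ140_A against WT (vertical axis) against that in LacQ140 against WT + IPTG (horizontal axis), for the 4 combinations of tissue and age. The 2 comparisons share no library. In the 12-month striatum Enpp6, Opalin, Tmem88b and Olig1 lie in the upper right and Mal, Tspan2 and Hapln2 in the lower left.

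Lowering of m*Htt* was compared directly with its continued expression, in mice that share the LacQ140 group as reference. LacQ140 mice were on IPTG when killed and the lowered groups were not. Lowering and the absence of IPTG thus cannot be told apart in the differences from LacQ140. No member was called in any of these comparisons in the edgeR fit used throughout, and DESeq2 called 0 as well. Some alternative fits of LacQ140_A against LacQ140 did call members, and their counts are given in the closing section. For LacQ140_A against LacQ140, 1.88%, 0.91%, 0.00834% and 0.0435% of all genes were called in the 6-month striatum, 12-month striatum, 6-month cortex and 12-month cortex, and 13, 7, 15 and 8 members had an unadjusted p under 0.05. That is 40.6%, 21.9%, 46.9% and 25.0% of the members, against 21.0%, 17.9%, 11.5% and 23.8% of genes with a mean of at least 1 CPM. In the 6-month striatum all 32 differences were positive, from 0.02 to 0.39 with a median of 0.14, against -0.01 over genes with a mean of at least 1 CPM. *Tmem88b* stood at 0.25 ± 0.08 (adjusted p = 0.0583), *Gjc3* at 0.23 ± 0.07 and *Ugt8a* at 0.39 ± 0.13 (adjusted p = 0.0898). *Mobp* lay at 1750.1, 2037 and 2209.7 CPM in LacQ140_A, a difference of 0.09 ± 0.06 from LacQ140 with overlapping groups. In the 6-month cortex 29 of 32 were positive, with a median of 0.17. At 12 months 23 of 32 were positive in striatum, with a median of 0.05, and 11 of 32 in cortex, with a median of -0.07.

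For LacQ140_2M against LacQ140 the share of all genes called was 1.26% and 0.608% in the 6- and 12-month striatum and 0.0% and 0.0841% in cortex, and 10, 2, 8 and 3 members had an unadjusted p under 0.05 (31.2%, 6.25%, 25.0% and 9.38%, against 19.4%, 12.9%, 15.5% and 7.12% of genes with a mean of at least 1 CPM). The members' median was 0.07 and -0.04 in striatum and 0.07 and 0.0089 in cortex, with 26, 12, 22 and 18 of 32 positive. *Mobp* lay at 1877, 2046 and 2342 CPM in the 6-month LacQ140_2M striatum, a difference of 0.14 ± 0.06, and *Ermn* stood at 0.23 ± 0.08 (adjusted p = 0.126). *Enpp6* lay at 16.7, 21.5 and 28.1 CPM in the 12-month striatum, a difference of -0.05 ± 0.09. For LacQ140_8M against LacQ140, the share of all genes called was 0.00565% in striatum and 0.0% in cortex, and 9 and 2 members had an unadjusted p under 0.05 (28.1% and 6.25%, against 6.99% and 1.69% of genes with a mean of at least 1 CPM). Here most differences were negative, 27 of 32 in striatum with a median of -0.09 and 24 of 32 in cortex with a median of -0.06. *Enpp6* lay at 17.04, 21.7 and 22.7 CPM and *Mal* at 343, 383 and 391.1 CPM in the striatum of LacQ140_8M mice, differences of -0.11 ± 0.09 and -0.08 ± 0.06. *Opalin* had the largest difference, -0.37 ± 0.13 (adjusted p = 0.864). LacQ140_8M against LacQ140_2M gave 0.0933% and 0.0899% of all genes and 3 and 2 members at an unadjusted p under 0.05 (9.38% and 6.25%, against 11.5% and 5.68%).

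The inducer alone was read from WT + IPTG against WT. In the 6-month striatum *Mobp* and *Bcas1* rose, by 0.30 ± 0.06 (adjusted p = 0.00637) and 0.31 ± 0.07 (adjusted p = 0.0157), when 0.584% of all genes were called. WT mice without IPTG had *Mobp* at 1892, 2415 and 2896 CPM, between the WT + IPTG and LacQ140 medians. In the 6-month cortex *Ugt8a* and *Tmem88b* were lower with IPTG, with changes of -0.64 ± 0.13 and -0.32 ± 0.08 (0.609% of all genes). At 6 months 12 members in striatum and 14 in cortex had an unadjusted p under 0.05 (37.5% and 43.8%, against 14.6% and 19.9% of genes with a mean of at least 1 CPM). At 12 months edgeR and DESeq2 each called 0 members in either tissue (0.218% and 0.0% of all genes), with 5 members in striatum and 6 in cortex at an unadjusted p under 0.05 (15.6% and 18.8%, against 19.5% and 8.5% of genes with a mean of at least 1 CPM). When the libraries with high markers of other tissues were left out, *Ugt8a* in the 6-month cortex was the only member called (0.214% of all genes there). *Mal* stood at 0.18 ± 0.06 (adjusted p = 0.197) and *Pdgfra* at 0.11 ± 0.07 in the 6-month striatum. Between females and males, with the group as a term, 0 members were called by edgeR or DESeq2 in any table (0.279%, 0.218%, 0.192% and 0.154% of all genes), and 9, 8, 8 and 3 had an unadjusted p under 0.05 in the 6-month striatum, 12-month striatum, 6-month cortex and 12-month cortex (28.1%, 25.0%, 25.0% and 9.38%, against 16.0%, 17.6%, 18.8% and 7.02% of genes with a mean of at least 1 CPM).

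Across single mice, with group means removed, *Mog* and *Mbp* moved together in striatum. Pearson's r was 0.64 at 6 months (50 libraries, Spearman's rho 0.54, permutation p = 1e-05, adjusted p over 24 relations of 0.00012 for r and 0.00096 for rho) and 0.67 at 12 months (57 libraries, rho 0.55, permutation p = 1e-05, with the same adjusted p), the smallest p that 100000 permutations can give. Without the 2 libraries farthest from the median of *Mog* the values of r were 0.57 and 0.64. Within single arms of 9 or 10 libraries r was positive in the striatum at both ages, from 0.44 in LacQ140 to 0.84 in WT at 6 months and from 0.13 in WT to 0.93 in LacQ140 at 12 months. In cortex the same r was 0.11 and 0.15 (permutation p = 0.47 and 0.26). It ran there from -0.17 in LacQ140_2M to 0.57 in WT + IPTG at 6 months, and from -0.325 in WT + IPTG to 0.736 in LacQ140 and 0.765 in LacQ140_8M at 12 months. Other mature genes also moved with *Mog* in striatum, given here as a description: *Cnp* had an r of 0.75 and 0.83, *Gjb1* 0.74 and 0.71 and *Opalin* 0.73 and 0.72 at 6 and 12 months. *Opalin* and *Gjb1* kept values of 0.60 and 0.57 in the 6-month cortex and of 0.66 and 0.63 in the 12-month cortex.

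The precursor genes had r of opposite sign with *Mog* in the 6-month striatum, -0.32 for both *Pdgfra* and *Cspg4*, with adjusted p = 0.12 for each in the permutation test. *Olig2* and *Mog* had an r of 0.39 at 12 months (adjusted p = 0.019 for r and 0.06 for rho, permutation test). That relation did not hold in each arm, with r of 0.57 to 0.745 in the 4 LacQ140 arms, -0.53 in WT and -0.03 in WT + IPTG. Levels in the 2 tissues of the same mouse were related for *Pdgfra* at 6 months, with r of 0.44 and rho of 0.50 over 50 mice (adjusted p = 0.013 and 0.0025, permutation test, r of 0.48 without the 2 farthest mice). Within arms this r ran from 0.03 in WT + IPTG to 0.66 in LacQ140. At 12 months r was 0.05 over 57 mice. For *Mog* and *Mbp* the relation between tissues did not pass at either age, with r from -0.15 to 0.24.

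**Figure D5:**
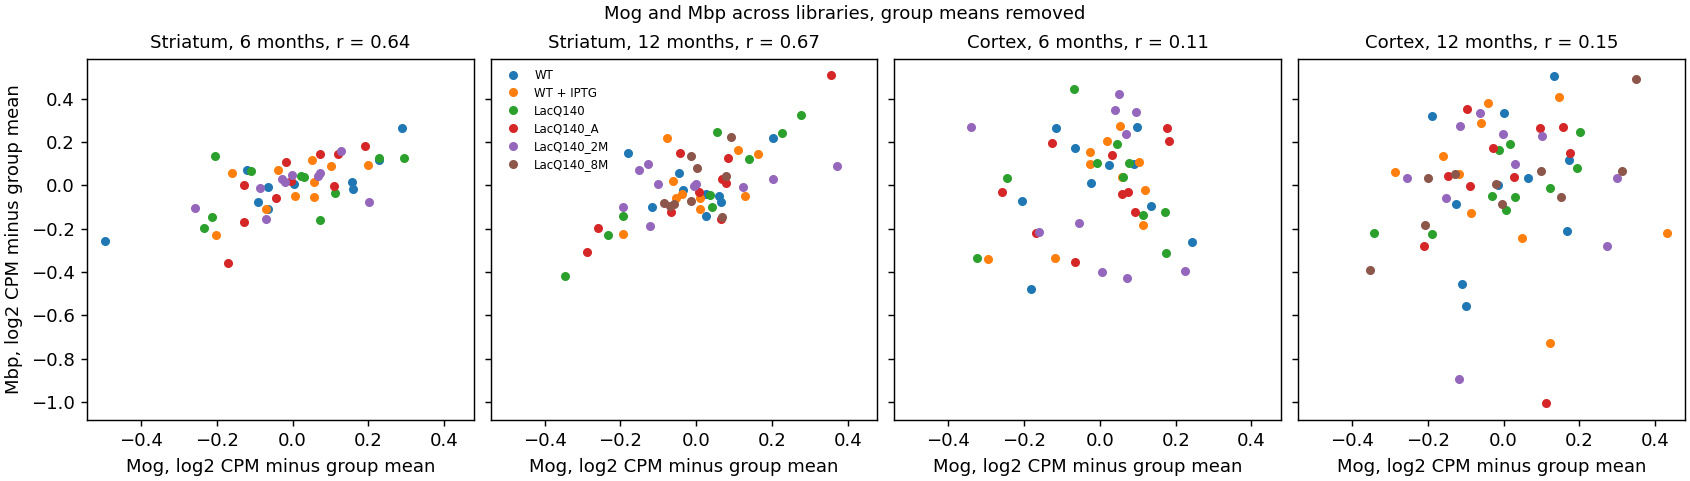
Log2 CPM of Mbp against that of Mog in each library after the group mean was removed, by tissue and age, coloured by arm. Points rise together in striatum, with r of 0.64 and 0.67, and show little relation in cortex, with r of 0.11 and 0.15.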

How the data were processed

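The authors deposited 1 table of expected counts per gene for each age, with both tissues in each. Per the labels the build was GRCm38; the aligner, the counting tool and its use of strand are not given in the sources used here. Counts were rounded to whole numbers. Genes with at least 1 count in a tissue and age were kept, TMM scaling was applied, and all groups of that tissue and age entered 1 edgeR quasi-likelihood fit (edgeR 4.0.16, R 4.3.3) without sex, mouse or batch terms. For tissue comparisons both tissues of an age were fitted together. CPM values used a prior count of 2 on the log scale. DESeq2 1.42.0 (independent filtering off) and the other alternatives are given in the closing section. Relations across libraries used 100000 permutations in scipy 1.17.1. Each fit was tested on simulated counts.

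The members and all gene lists were chosen with earlier results of these data known. *Mbp*, *Mog*, *Olig2*, *Sox10*, *Myrf*, *Pdgfra* and *Cspg4* are described throughout, with up to 6 called members of smallest p in LacQ140 against WT + IPTG for each tissue and age, and up to 3 called genes of each other lineage list, of which some are not reported here. Coordinates are from the GRCm38 annotation. *Mobp* shares its strand with the overlapping gene *Gm38642* and *Pdgfra* with *Mir7025*, and several other members overlap a gene on the other strand, so their counts may hold reads of those genes. Among 963 pairs of libraries within groups, none agreed within sampling noise.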

Additional observations from a re-analysis of the deposited data

Results flagged for a closer look

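Within groups of 9 or 10 libraries, 374 sets of CPM values of the members described in full were searched for a lowest or highest library that stood far from the nearest other one, by Dixon's 95% criterion. That criterion marks about 1 in 20 groups by chance, and 29 were marked.

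In the 12-month striatum 4 of them were in 1 library, LacQ140_A female 3, with *Mbp* at 9921 CPM (the nearest other library 7731), *Mog* at 174 CPM (144), *Cldn11* at 262 CPM (197) and *Tspan2* at 157 CPM (127). In the same tissue and age LacQ140_2M female 2 was low for *Gjc3* at 41.8 CPM (54.8) and *Myrf* at 109 CPM (130), LacQ140_2M male 2 was high for *Ugt8a* at 52.4 CPM (39.5), LacQ140_8M male 2 was low for *Hapln2* at 26.1 CPM (35.1), LacQ140_8M female 2 was high for *Bcas1* at 539 CPM (437) and WT male 5 was low for *Opalin* at 24.8 CPM (34.6). In the 6-month striatum WT female 1 was high for *Cldn11* at 284 CPM (228.1), WT + IPTG female 5 for *Tspan2* at 221.2 CPM (194) and LacQ140 female 5 for *Olig2* at 42.3 CPM (28.6).

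In the 6-month cortex LacQ140 male 2 was low for *Cldn11* at 55.7 CPM (72.5) and *Mal* at 194 CPM (239.8), LacQ140_A female 5 for *Tspan2* at 66.8 CPM (79.1) and WT + IPTG female 5 for *Enpp6* at 4.39 CPM (5.10), and LacQ140 female 2 was high for *Bcas1* at 262 CPM (210.2). In the 12-month cortex the high libraries were WT female 3 for *Tspan2* at 75.5 CPM (61.9), WT female 4 for *Ugt8a* at 38.4 CPM (26.3), WT + IPTG female 5 for *Mal* at 706 CPM (536), LacQ140_A female 4 for *Gjc3* at 53.9 CPM (45.2) and *Hapln2* at 63.1 CPM (40.5), LacQ140_A male 3 for *Enpp6* at 11.6 CPM (8.57), LacQ140_2M male 4 for *Cspg4* at 8.47 CPM (5.13), LacQ140_8M male 4 for *Mbp* at 7209 CPM (5371) and LacQ140_8M female 5 for *Pdgfra* at 21.6 CPM (15.5). WT + IPTG female 4 was low for *Cldn11* at 40.5 CPM (55.2) and WT + IPTG male 3 for *Myrf* at 8.52 CPM (11.8).

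The disease effect on *Mal* differed between the tissues at 6 months, with a log2 fold change in striatum lower than that in cortex by a difference of -0.352 ± 0.094 (edgeR interaction test, adjusted p = 0.0463).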

How the results depend on the processing

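The count of members called was recomputed under each alternative. Of these counts 29 moved by over 1.5 times from the value reported, those named here, and the rest did not. Within a tissue no direction of a called member reversed, and between WT tissues at 12 months the length slope term turned 7 called members, those named with the tissue comparison. In striatum the counts for LacQ140 against WT + IPTG stayed within 1.5 times under DESeq2, DESeq2 size factors, filterByExpr, a sex term, a length slope term, the 2 groups alone, pooled WT mice and the fit without a fold bound. Leaving out 1 library at a time gave 12 to 13 members at 6 months and 10 to 11 at 12 months in striatum, and 0 to 2 and 2 to 4 in cortex.

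The cortex depended more on the fit. For LacQ140 against WT + IPTG, pooling WT mice with and without IPTG gave 4 members at 6 months and 5 at 12 months, the length slope term 2 and 7, and the 2 groups alone 2 and 5. Without libraries with high markers of other tissues, an alternative chosen after seeing the data, 0 were called at 12 months. For LacQ140_A against WT in cortex, filterByExpr gave 2 at 6 months, the length slope term 2 and 3 at 6 and 12 months, the 2 groups alone 0 at 6 months, and leaving out the high-marker libraries 0 at both ages. In striatum the same pair had 11 members at 12 months without the fold bound, and 2 at 6 months with the 2 groups alone and 2 without high-marker libraries. For LacQ140_A against LacQ140 the 2 groups alone gave 4 in the 12-month cortex, 1 in the 6-month cortex and 1 in the 6-month striatum, where the sex term also gave 1. For WT + IPTG against WT the length slope term gave 1 in the 12-month cortex, leaving out high-marker libraries 1 in the 6-month cortex and 0 in the 6-month striatum, and the 2 groups alone 0 in that striatum. The interaction between tissues at 6 months gave 2 members with the length slope term. The causes were not tested.

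Replicate numbers within a sex did not pair the mice across groups: same-numbered libraries had deviations correlated at a mean r of 0.0774 to 0.1, with values from -0.582 to 0.728. Libraries of the same sex with other numbers had means of 0.0561 to 0.141, and the 12-month cortex alone had the lower mean for other numbers (0.0561 against 0.0911). Taken as a block, sex and number gave 0 members for LacQ140_A against WT in cortex at both ages and 1 for WT + IPTG against WT in the 6-month cortex, and kept all other counts within 1.5 times. For the tissue comparisons the block was the mouse, a true pairing, and it gave 3 members in the interaction at 6 months. The effect of depth on single members was not tested.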

Other observations

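Several members stood at other levels in the 12-month cortex than in the 6-month cortex, some lower and some higher. The mean log2 CPM of the precursor genes *Pdgfra* and *Cspg4* had group medians from 2.74 in LacQ140_2M to 3.02 in LacQ140 at 12 months, and from 4.96 in LacQ140_2M to 5.28 in LacQ140_A at 6 months. Other members were lower as well. In WT cortex the mean was 33.3 CPM at 6 months and 11.2 at 12 months for *Sox10*, 37.1 and 15.1 for *Myrf*, 144.7 and 39.02 for *Nfasc* and 24.5 and 10.9 for *Fa2h*. *Mobp* (1169 and 2387 CPM) and *Opalin* (29.3 and 52.9 CPM) were higher. The group medians of the slope of CPM on transcript length also stood apart in the 12-month cortex, and age cannot be told apart from the batch.

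*Nfasc*, which neurons express as well, was the mature gene with the most negative r with *Mog* in all 4 tables, at -0.29 and -0.06 in striatum and -0.23 and -0.19 in cortex at 6 and 12 months (group means removed, 50 to 60 libraries of shared depth and scaling, given as a description). *Hapln2* had an r of 0.01 with *Mog* in the 6-month striatum and -0.21 in the 6-month cortex.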
